A study of Mus musculus with 6 samples.

Results

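Arginase 1 (Arg1), arginase 2 (Arg2) and 8 other genes linked to alternative macrophage activation were examined in microglia isolated after acute ischemic stroke (AIS). The 10 genes were Arg1, Arg2, Il4ra, Stat6, Socs3, Chil3, Retnla, Mrc1, Cd163 and Clec10a, among 23462 genes named on the arrays. They were measured by 13 of the 56605 probes that are not controls, found through the transcript accession that the array files give for each probe. Arg1 was chosen by its lower level on the arrays labelled mPGC-1α in this same comparison, so its values are described here without a test. The other 9 genes were included for their function, with earlier results of these data known.

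Macrophages and microglia that meet the cytokines interleukin-4 or interleukin-13 take up a program called alternative activation. The cytokines bind a receptor whose alpha chain is encoded by Il4ra, and the transcription factor STAT6 carries the signal to the nucleus. Typical targets are arginase 1, which splits arginine into ornithine and urea and so competes with nitric oxide synthase for arginine, the secreted proteins Chil3 and Retnla, and the sugar-binding receptors Mrc1 and Clec10a. After brain ischemia such genes are widely used as markers of microglia and of infiltrating myeloid cells with repair functions.

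RNA was measured in microglia from 3 PGC-1α f/f mouse samples (control) and 3 mPGC-1α samples, with 1 single-colour array per sample, to ask what microglial PGC-1α changes after AIS. All mice had undergone AIS, modelled in the study by transient occlusion of the middle cerebral artery (tMCAO), on a C57BL/6 background, and were labelled as male and 10 weeks old. The control PGC-1α f/f mice carried PGC-1α joined to an eGFP tag, inactive until recombined by Cre, and the mPGC-1α mice carried in addition Cx3cr1-Cre/ER, a Cre active in Cx3cr1-expressing cells after tamoxifen. Tamoxifen was given in the study to both genotypes, which were littermates, and microglia were selected with magnetic beads against P2RY12. Cx3cr1 is also transcribed in monocytes and in other macrophages, and the study left an interval between tamoxifen and tMCAO to restrict the overexpression to microglia. No label states how long after AIS these samples were taken, or whether a sample was 1 animal or a pool, so p-values measure only the spread between these samples.

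Levels are log2 signals after subtracting the log2 75th percentile of their array, differences are mPGC-1α minus control on this log2 scale, and a level cannot be compared between probes. Values of a group are given in the order of its replicates 1, 2 and 3. Signals were well above background on 71.0% to 86.5% of spots, and the slide of replicate 3 was not that of replicates 1 and 2, in either group. The labels were checked before the genes were compared. Ppargc1a, which encodes PGC-1α, was not higher on the mPGC-1α arrays: its levels were -1.05, -0.55 and -0.53 in the control group against -1.08, -0.86 and -1.12 in the mPGC-1α group (difference -0.31, limma adjusted p = 0.798). On a second Ppargc1a probe the difference was -0.41 (limma adjusted p = 0.769). The study itself reported higher PGC-1α in mPGC-1α microglia, by immunostaining in brain and by qRT-PCR in primary microglia. Whether the Ppargc1a probes read the transcript of the overexpressed gene was not analysed here, so they cannot decide whether the labels hold. mPGC-1α therefore names the label of an array in what follows. Control array 2 stood apart in the sex chromosome genes: the level of Xist, transcribed from the inactive X chromosome of females, was -4.83 on this array and -0.57 to -0.11 on the other 5, and of the Y-linked genes Ddx3y and Uty had a signal well above background there and on no other array. Other Y-linked probes were mixed: 1 of 3 Kdm5d probes was well above background on all 6 arrays (levels -5.01 to -3.09, highest on control array 2), 1 of 2 Eif2s3y probes on 2 control arrays (highest, at -0.81, on control array 2), and the rest on control array 2 or on none. The Xist levels of the other 5 arrays went against the label male, and the results of the 10 genes are also given without control array 2. Over the 40745 probes tested, 0 passed an adjusted p of 0.05 (percent called 0), with a smallest adjusted p of 0.638. An unadjusted p under 0.05 was found for 2921 probes. Without control array 2, 2073 probes passed the adjusted threshold, 1946 of them lower on the mPGC-1α arrays. The median difference over all probes was 0.08, and 0.19 without control array 2.

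Arg1, the cytosolic arginase, lay lower on every mPGC-1α array than on every control array. On its only probe (A_51_P303160) the control arrays had levels of -0.64, -0.31 and 1.08. The mPGC-1α arrays had -2.34, -1.58 and -2.55. The highest mPGC-1α array lay below the lowest control array, and control array 3 was the highest of the 6. The means were 0.04 ± 0.92 (SD, n = 3) and -2.16 ± 0.51 (SD, n = 3), a difference of -2.20 with a standard error (SE) of 0.45, or 4.59-fold. The difference was -1.48 within the first slide, which held replicates 1 and 2 of each group, and -3.63 on the second, which held replicate 3. Without control array 2 it was -2.38, and without control array 3 it was -1.68, the smallest value when single arrays were left out. The signal was well above background on all 6 arrays. In samples of many cells, fewer cells that express a gene and less RNA per cell cannot be told apart, for Arg1 and for the genes that follow.

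Arg2 encodes the mitochondrial arginase, which catalyses the same reaction. Its levels were -1.75, -2.65 and -0.50 in the control group against -3.14, -1.76 and -2.02 in the mPGC-1α group. Control array 3 was again the highest, while control array 2 lay below 2 of the 3 mPGC-1α arrays. The mean was -1.63 ± 1.08 (SD, n = 3) in the control group and -2.30 ± 0.73 (SD, n = 3) in the mPGC-1α group. The difference of -0.67 (SE 0.55, 95% interval -1.90 to 0.56) did not pass the test (limma adjusted p = 0.805, exact permutation p = 0.4, two-sided). With 3 arrays against 3 the exact test cannot give less than 0.1. Without control array 2 the difference was -1.18 (limma adjusted p = 0.219), and without control array 3 it was -0.10. Whether Arg1 and Arg2 differed in their change was not tested.

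**Figure D1:**
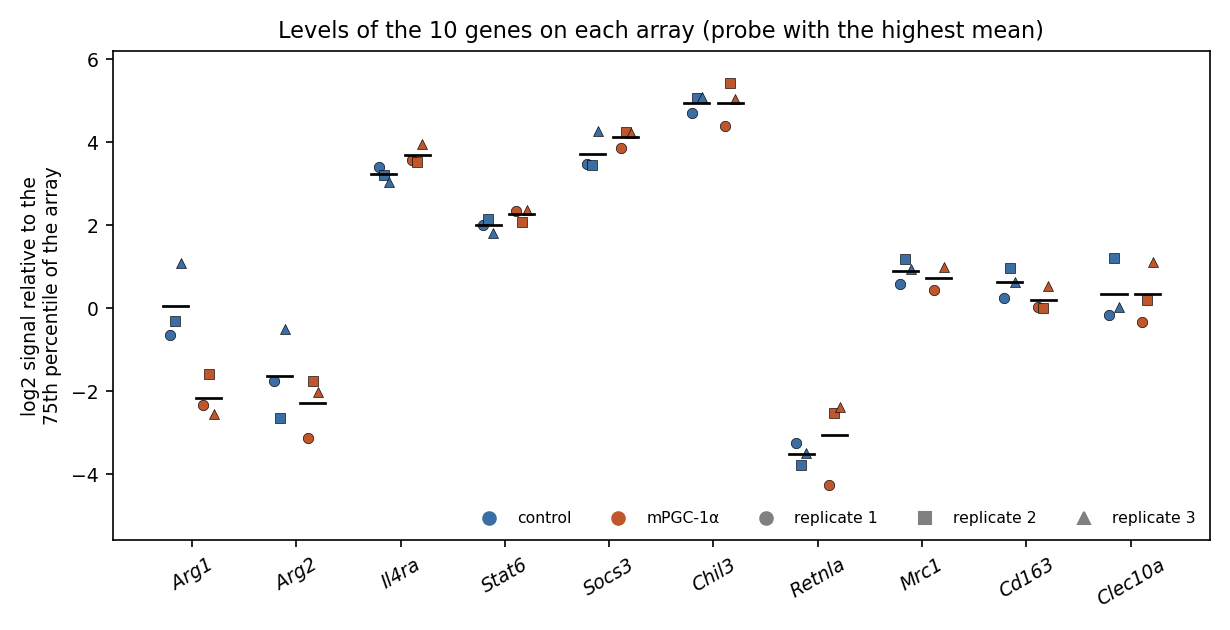
Level of each of the 10 genes on each array, as log2 signal relative to the 75th percentile of the array, on the probe of the gene with the highest mean. Points are arrays, coloured by group and shaped by replicate number, and bars are group means; heights cannot be compared between genes. The Arg1 points of the groups do not overlap (lowest control -0.64, highest mPGC-1α -1.58), whereas those of Chil3 share the same mean of 4.95.

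The receptor chain Il4ra, the factor Stat6 and the inhibitor Socs3 had higher means on the mPGC-1α arrays, by 0.27 to 0.46 on their brightest probes, and none passed the test. On the brighter Il4ra probe (A_51_P464478) the levels were 3.41, 3.21 and 3.03 in the control group against 3.57, 3.52 and 3.95 in the mPGC-1α group. All 3 mPGC-1α arrays lay above all 3 control arrays. The difference of 0.46 (SE 0.20, 95% interval 0.02 to 0.90, 1.38-fold) had an unadjusted p of 0.0429 and did not pass after adjustment over all probes (limma adjusted p = 0.69, exact permutation p = 0.1). The second Il4ra probe (A_55_P1966189) had 0.75, 0.66 and 0.52 in the control group against 0.85, 0.81 and 0.93 in the mPGC-1α group. Its groups did not overlap either, and its difference was 0.22 (SE 0.19, limma adjusted p = 0.814). Leaving out control array 2 gave 0.46 on the first probe and 0.23 on the second, with limma adjusted p = 0.244 and 0.447.

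Stat6, the transcription factor that the receptor activates, had levels of 2.00, 2.15 and 1.81 in the control group against 2.34, 2.07 and 2.36 in the mPGC-1α group. The groups overlapped through replicate 2 of each. The difference of 0.27 (SE 0.19, 95% interval -0.16 to 0.70) had a limma adjusted p of 0.778, and without control array 2 it was 0.35 (limma adjusted p = 0.287). Socs3, a feedback inhibitor of cytokine receptors that signal through STAT3, had levels of 3.46, 3.45 and 4.26 in the control group against 3.86, 4.25 and 4.22 in the mPGC-1α group. Control array 3 reached the level of the mPGC-1α arrays. Its difference was 0.39 (SE 0.25, 95% interval -0.17 to 0.95, limma adjusted p = 0.767), with 0.60 for the first slide and -0.04 for the other. Without control array 2 it was 0.25 (limma adjusted p = 0.559).

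STAT proteins bind short palindromes, so the promoters of the 10 genes were searched for TTCNNNNGAA, the spacing that STAT6 prefers, and for TTCNNNGAA, the spacing of most other STAT proteins, from 250 bases before to 50 bases after the start. Each motif reads the same on both strands, and they cannot start at the same base. The RefSeq table (GRCm38.p6) held promoters for 7 of the 10 genes, and 3 of these had a match, 1 each. The match was to TTCNNNNGAA for Retnla and to TTCNNNGAA for Chil3 and Socs3. Among all 32851 promoters of the same length, 6.95% held TTCNNNNGAA and 8.30% held TTCNNNGAA. The share that held either motif was not computed, so the 3 of 7 has no share to be read against. The 250 bases before the start are shown for these 3 genes, 5′ to 3′ on the strand of the gene, because they show where the motif lies; capitals mark the match. Retnla lies on the plus strand at chr16:48842359-48842608 and its match starts at position -145 from the start. Chil3 lies on the minus strand at chr3:106167565-106167814 with a match at -172. Socs3 lies on the minus strand at chr11:117969367-117969616 with a match at -154. A match describes letters in this window and not a bound site.
Retnla: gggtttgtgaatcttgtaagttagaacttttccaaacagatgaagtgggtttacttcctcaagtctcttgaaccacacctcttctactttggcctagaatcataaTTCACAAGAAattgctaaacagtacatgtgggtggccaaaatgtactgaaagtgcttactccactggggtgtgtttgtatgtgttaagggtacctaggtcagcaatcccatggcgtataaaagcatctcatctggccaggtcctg
Chil3: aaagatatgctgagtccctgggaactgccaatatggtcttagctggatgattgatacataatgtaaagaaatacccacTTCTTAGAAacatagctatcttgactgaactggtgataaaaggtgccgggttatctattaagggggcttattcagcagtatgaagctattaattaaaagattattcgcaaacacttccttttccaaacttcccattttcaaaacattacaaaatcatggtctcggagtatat
Socs3: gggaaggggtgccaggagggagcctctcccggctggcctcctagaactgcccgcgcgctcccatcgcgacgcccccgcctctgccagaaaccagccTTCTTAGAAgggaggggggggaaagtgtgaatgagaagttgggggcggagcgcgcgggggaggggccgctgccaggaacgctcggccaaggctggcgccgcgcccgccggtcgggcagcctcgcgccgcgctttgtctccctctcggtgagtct

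Chil3 and Retnla, the genes of this group that encode secreted effectors, overlapped between the groups. Chil3 encodes a chitinase-like protein that neutrophils also make. Its levels were 4.71, 5.06 and 5.08 in the control group against 4.38, 5.43 and 5.03 in the mPGC-1α group. Replicate 1 was the lowest of each group, and the mPGC-1α arrays spanned the control arrays. Both means were 4.95, with SDs of 0.21 and 0.53 (n = 3 each), and the difference was 0.00 (SE 0.26, 95% interval -0.60 to 0.59, limma adjusted p = 0.998). Without control array 2 it was 0.05 (limma adjusted p = 0.923). Retnla, whose promoter holds the STAT6-type match, encodes a small cysteine-rich protein induced by interleukin-4. It had levels of -3.25, -3.79 and -3.49 in the control group against -4.27, -2.53 and -2.39 in the mPGC-1α group. The mPGC-1α group held both the lowest and the highest array. The difference of 0.45 (SE 0.49, 95% interval -0.65 to 1.54) had a limma adjusted p of 0.854 and an exact permutation p of 0.5, and leaving out 1 array gave 0.31 for control array 2 and 1.05 for mPGC-1α array 1.

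Of the scavenger and lectin receptors, Mrc1 was measured by 1 probe, and Cd163 and Clec10a by 2 probes each, whose differences were unlike in size. Mrc1, the mannose receptor, had levels of 0.57, 1.18 and 0.94 in the control group and 0.44 and 1.00 on mPGC-1α arrays 1 and 3. Its spot on mPGC-1α array 2 was marked as an outlier by the scanner software and left out; its level there was 1.25. The groups overlapped, with a difference of -0.18 (SE 0.29, 95% interval -0.84 to 0.48, limma adjusted p = 0.908, exact permutation p = 0.6). It was 0.00 with the marked spot kept and -0.04 without control array 2.

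Cd163 encodes the receptor that clears haemoglobin bound to haptoglobin. On its brighter probe (A_51_P231042) the levels were 0.25, 0.97 and 0.63 in the control group against 0.03, -0.01 and 0.54 in the mPGC-1α group. The groups overlapped, and the difference of -0.43 (SE 0.26, 95% interval -1.02 to 0.16) had a limma adjusted p of 0.755. The second probe (A_55_P2289819) read -0.34, -3.09 and -0.10 in the control group against -3.52, -3.63 and -3.18 in the mPGC-1α group. Control arrays 1 and 3 lay far above the other 4, and control array 2 lay next to the mPGC-1α arrays. Its difference was -2.27 (SE 0.68, 95% interval -3.79 to -0.74, 4.81-fold) with a limma adjusted p of 0.684. Without control array 2 it was -3.22 (SE 0.24) and passed the test (limma adjusted p = 0.000697), whereas the brighter probe then gave -0.25 (limma adjusted p = 0.531). In that fit 2073 of all 40745 probes passed. The mean of both probes differed by -1.35 (SE 0.35, limma adjusted p = 0.825). What parts of the transcript the probes read was not analysed here.

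Clec10a encodes a lectin for galactose-type sugars on macrophages and dendritic cells. Its brighter probe (A_51_P141413) read -0.18, 1.20 and 0.02 in the control group against -0.34, 0.20 and 1.12 in the mPGC-1α group. These groups overlapped over most of their range, with a difference of -0.02 (SE 0.44, 95% interval -1.01 to 0.97, limma adjusted p = 0.996), and leaving out control array 2 turned it to 0.41 (limma adjusted p = 0.529). On the second probe (A_55_P2924965) the values were -0.93, -2.01 and -1.53 in the control group against -2.60, -2.95 and -2.11 in the mPGC-1α group. There every mPGC-1α array lay below every control array. The difference of -1.06 (SE 0.35, 95% interval -1.85 to -0.28, 2.09-fold) did not pass the test (limma adjusted p = 0.684), nor did the value of -1.33 without control array 2 (limma adjusted p = 0.0595).

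**Figure D2:**
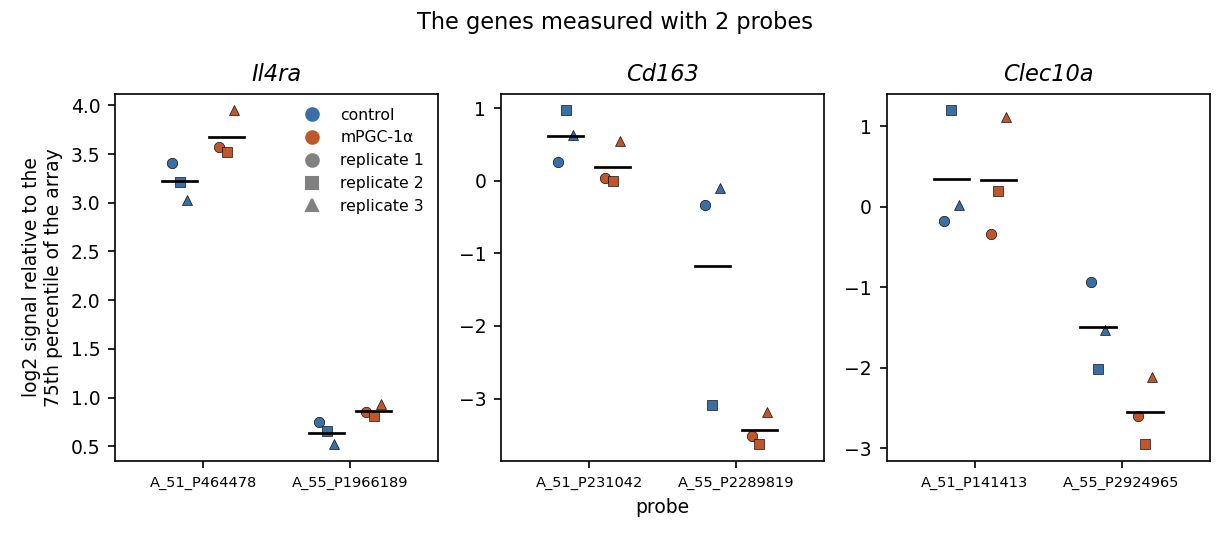
Il4ra, Cd163 and Clec10a on each of their 2 probes, as log2 signal relative to the 75th percentile of the array. Points are arrays, coloured by group and shaped by replicate, and bars are group means. The Il4ra probes differ between the groups the same way (0.46 and 0.22), whereas the second Cd163 probe separates control arrays 1 and 3 (-0.34 and -0.10) from the other 4 arrays (-3.63 to -3.09).

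Over the 9 genes other than Arg1, 0 of 12 probes passed the test, with limma adjusted p from 0.684 to 0.998. An unadjusted p under 0.05 was found for 3 of the 12 probes, 1 each of Il4ra, Cd163 and Clec10a, and for 7.17% of all probes tested. These were higher for Il4ra and lower for Cd163 and Clec10a, where 2.65% of all probes were higher and 4.52% lower with such a p. Of the 11 probes with a value on each array, 4 had groups that did not overlap, against 11.5% of all such probes. Both Il4ra probes were apart upward (6.8% of all) and the second probes of Cd163 and Clec10a downward (4.66% of all). On the brightest probe of each gene, 4 genes had a higher mean on the mPGC-1α arrays and 5 a lower one, where 64% of all 18222 genes tested had a higher one. The differences of the 9 genes ranged from -0.67 to 0.46 with a median of 0.00, and the median over all genes was 0.11. Arg1, at -2.20, lay outside that range by the choice of the gene. A difference of at least 1 log2 unit downward was found for 4.34% of all probes.

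**Figure D3:**
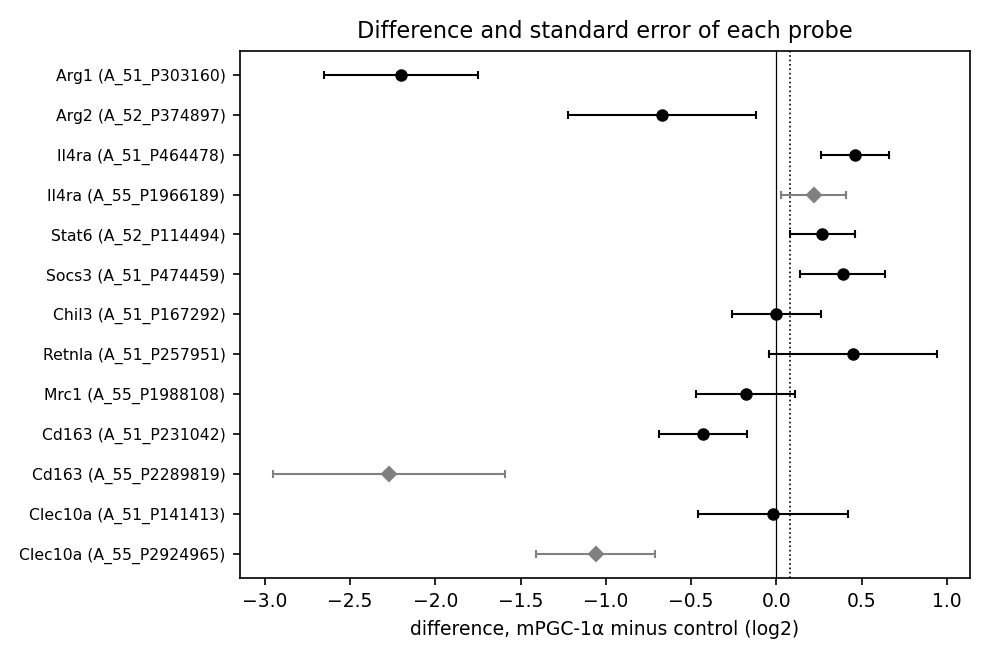
Difference between the group means for each of the 13 probes (mPGC-1α minus control, log2), with the SE from limma as bars. Black circles are the brightest probe of a gene, grey diamonds second probes, the solid line is 0 and the dotted line the median of all probes tested (0.08). Arg1 (-2.20) and the second Cd163 probe (-2.27) lie farthest below 0, and the Cd163 bar is the wider one (SE 0.68 against 0.45).

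Other genes of the pathway were read from a list of 52 genes, of which 47 were tested on their brightest probe. Of these, 0 passed the test, and 27 had a higher mean on the mPGC-1α arrays and 20 a lower one, where 64% of all genes had a higher one. The median difference of the list was 0.02, and that of all genes 0.11. An unadjusted p under 0.05 was found for 6 genes, against 6.09% of all genes, and 6 of the 39 genes measured on all arrays had groups that did not overlap, against 11.9% of all such genes. Jak1, Cebpb and Socs1 were not tested because their spots were marked on 5, 4 and 4 arrays, Ccl22 because it was well above background on 3 arrays only, and no probe was matched to Amd1.

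Among the ligands and receptor chains, 5 of 11 genes tested had a higher mean and 6 a lower one, and their median was -0.01. The ligands Il4 and Il13 differed by -0.01 and -0.05, and Il10, an anti-inflammatory cytokine, by -0.19. Il13ra1 and Il2rg, the chains that pair with the product of Il4ra, differed by -0.21 and 0.17. Irs2, an adaptor that the receptor phosphorylates, had levels of 2.03, 2.10 and 2.31 in the control group against 2.51, 2.55 and 2.70 in the mPGC-1α group. Its groups did not overlap, and its difference was 0.44 (SE 0.18, unadjusted p = 0.0378, limma adjusted p = 0.687).

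Among the transcription factors and feedback inhibitors, 7 of 10 genes tested were higher and 3 lower, with a median of 0.26. Klf4 and Pparg, which act with STAT6 on its targets, differed by 0.07 and -0.15. Kdm6b, a demethylase of histone H3, read 2.59, 2.11 and 2.34 in the control group and 3.48 and 2.66 on mPGC-1α arrays 1 and 2, its spot on array 3 being marked (difference 0.72, SE 0.29, limma adjusted p = 0.686). Stat3, which carries the signal of interleukin-10, had levels of 3.53, 3.57 and 3.54 in the control group against 4.04, 4.08 and 4.27 in the mPGC-1α group. These groups were apart and narrow, with a difference of 0.58 (SE 0.16, unadjusted p = 0.00582, limma adjusted p = 0.684). The second Stat3 probe went the other way, with 2.33, 0.85 and 1.94 against 1.09, 1.38 and 1.26 and a difference of -0.46 (limma adjusted p = 0.789).

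Among the effectors of alternative activation, 6 of 13 genes tested were higher and 7 lower, with a median of -0.14. Mgl2, the paralog of Clec10a, differed by 0.20 without overlap of the groups, and by 0.02 with overlap on its second probe. Ccl24 and Tgm2 differed by 0.18 and 0.45, and none of these passed. Alox15, a lipoxygenase, read -1.95, -2.50 and -1.75 in the control group against -4.07, -2.69 and -2.98 in the mPGC-1α group. Every mPGC-1α array was lower (difference -1.18, SE 0.40, limma adjusted p = 0.684). Cd209a, a lectin of dendritic cells, differed by -1.0 on its brighter probe and by -1.02 on the second, with overlap on both. Il1rn, the antagonist of the interleukin-1 receptor, read 2.40, -1.42 and 2.78 in the control group against -2.01, -1.66 and -1.97 in the mPGC-1α group. As on the second Cd163 probe, control arrays 1 and 3 lay far above the other 4. The difference of -3.13 (SE 0.91, limma adjusted p = 0.684) became -4.47 (SE 0.22) without control array 2 and then passed the test (limma adjusted p = 0.000349). The second Il1rn probe was not tested because its spots on control arrays 2 and 3 were marked. It read 1.29 on control array 1, 0.13 and 1.12 on the marked spots, and -0.94, -0.53 and -1.34 in the mPGC-1α group. Msr1, a scavenger receptor named here after its values were seen, was the other listed gene to pass without control array 2. Its difference was then -1.24 (limma adjusted p = 0.0386), against -0.84 with all arrays. Its second probe differed by -0.26 with all arrays (limma adjusted p = 0.892). Without control array 2, 2 of the 47 listed genes tested thus passed, where 2073 of all 40745 probes did.

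Among the genes of arginine, ornithine and polyamine metabolism, which use the substrate or the product of arginase, 9 of 13 genes tested were higher and 4 lower, with a median of 0.07, and 0 had an unadjusted p under 0.05 on the brightest probe. Nos2, the nitric oxide synthase that competes for arginine, read 1.37 and 2.18 on control arrays 1 and 3 and 1.74, 1.85 and 1.78 in the mPGC-1α group, with the spot of control array 2 marked. Its difference was 0.02 (SE 0.28, limma adjusted p = 0.994). Odc1, which turns ornithine into putrescine, differed by -0.49 on its brighter probe, with overlap of the groups (SE 0.32, limma adjusted p = 0.767). Its second probe read 1.94, -1.15 and 2.37 in the control group against -1.91, -1.67 and -1.64 in the mPGC-1α group (difference -2.79, SE 0.76, limma adjusted p = 0.684). Control arrays 1 and 3 again stood above the rest. The same pattern was seen in genes outside this pathway, read with marked spots kept. Olfml3, a microglial marker, read 4.29, 1.45 and 4.35 in the control group against 1.87, 1.74 and 2.39. Pecam1, an endothelial marker, read 0.28, -2.24 and 0.49 against -1.79, -1.80 and -1.53.

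**Figure D4:**
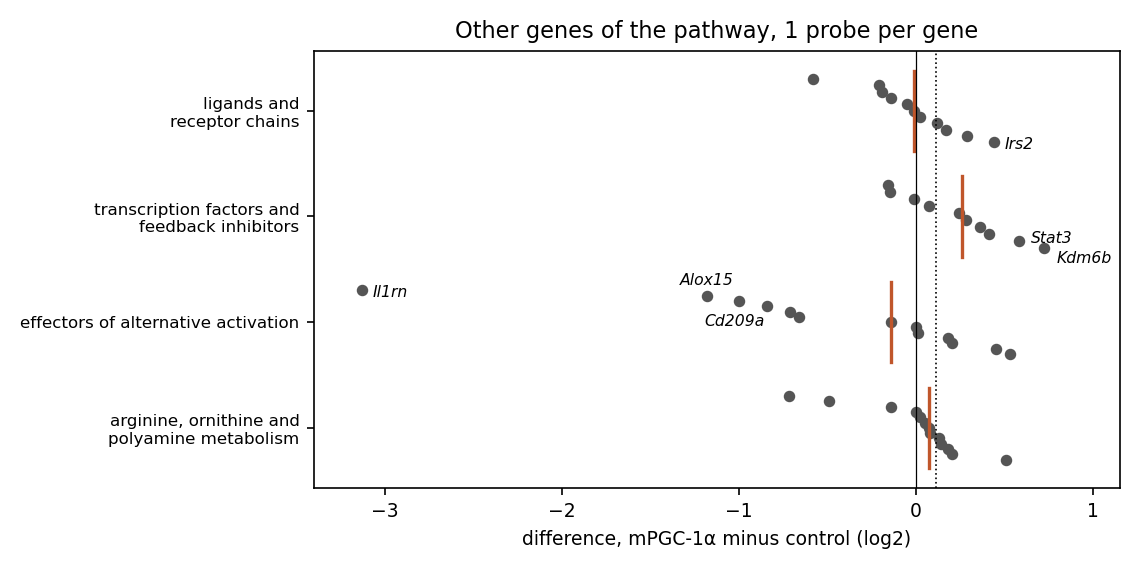
Difference between the group means (mPGC-1α minus control, log2) for the 47 other pathway genes tested, 1 point per gene on its brightest probe, in 4 lists. Orange bars are the medians of the lists, the dotted line is the median of all genes (0.11), and genes with an unadjusted p under 0.05 are named. The list medians lie between -0.14 and 0.26, and Il1rn at -3.13 lies farthest from 0.

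Several of the 10 genes are expressed by other cells than microglia, so marker lists were read on the same arrays, with spots marked as outliers kept because these were mostly bright. All 11 microglial markers were well above background on all 6 arrays, with a summed level of 245 to 274 times the 75th percentile on the control arrays and 249 to 272 on the mPGC-1α arrays. The 10 neutrophil markers were also well above background on every array, with sums of 200, 288 and 276 in the control group against 188, 312 and 302 in the mPGC-1α group. Chil3 was lowest on the same arrays, replicate 1 of each group. The monocyte, astrocyte and endothelial sums given below were also lowest on replicate 1 of each group, so this is not particular to neutrophils. The neuronal and oligodendrocyte sums and those of border-associated macrophages were not. Sums of the 10 monocyte markers ranged from 156 to 234 on the control arrays and from 219 to 276 on the mPGC-1α arrays, with 62.1% to 79.4% of each sum from Ms4a4c. Without Ms4a4c they were 55.6, 73.1 and 79.9 in the control group against 45.1, 104 and 89.2 in the mPGC-1α group. Of the 10 markers, 7, 1 and 3 were lower on the mPGC-1α array than on the control array of the same number, for replicates 1, 2 and 3. The labels do not explain these numbers. For the 10 markers of border-associated macrophages, cells of the meninges and vessels in which Mrc1 and Cd163 are typical genes, the sums were 23.9 to 33.7 and 25.8 to 30.1, with 3 markers higher, 7 lower and a median of -0.22. Stab1 gave 50% to 74.8% of these sums, which without it were 9.12 to 16.5 and 7.01 to 12.9. All 8 neuronal, 6 oligodendrocyte and 6 astrocyte markers had higher means on the mPGC-1α arrays, with median differences of 0.91, 0.74 and 0.55. Of all genes tested, with marked spots left out, 64% had a higher mean, and their median difference was 0.11. The neuronal sums were 39.8 to 64.8 on the control arrays against 64.3 to 73.6. Oligodendrocyte sums were 11.5 to 18.6 against 21.7 to 30.1, and astrocyte sums 7.83 to 9.41 against 9.33 to 17.9. Snap25 gave 86.8% to 96.3% of the neuronal sums, which without it were 2.22 to 3.38 against 3.37 to 8.97. For the endothelial markers, 5 of 6 were tested, and the sums were 8.81 to 12.8 and 5.97 to 13 with a median difference of 0.00. Ly6a gave 76.4% to 91.8% of these sums, which without it were 1.16 to 2.68 and 0.963 to 1.28. Of these markers 3 were higher and 2 lower, Pecam1 by -1.22 and Slco1a4 by -1.17. In these lists 0 markers passed the test, and every marker tested was well above background on all 6 arrays except 1 neuronal marker. Cx3cr1, a microglial marker and the driver of Cre, had a lower level on every mPGC-1α array on the probe without marked spots (A_52_P99810), with 4.19, 3.66 and 4.11 against 2.79, 2.36 and 3.13 (difference -1.23, SE 0.24, limma adjusted p = 0.684). Its other probe (A_55_P2007964), which has the higher mean and was read with marked spots kept, gave 3.96, 4.41 and 3.75 against 3.57, 3.67 and 3.90, with overlap of the groups (difference -0.33, SE 0.21, limma adjusted p = 0.749). Only the mPGC-1α mice carried the Cre driven by Cx3cr1, and its effect on the level of Cx3cr1 was not tested. The part of the listed cell types in the levels of Arg1 and of the other genes was not tested.

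**Figure D5:**
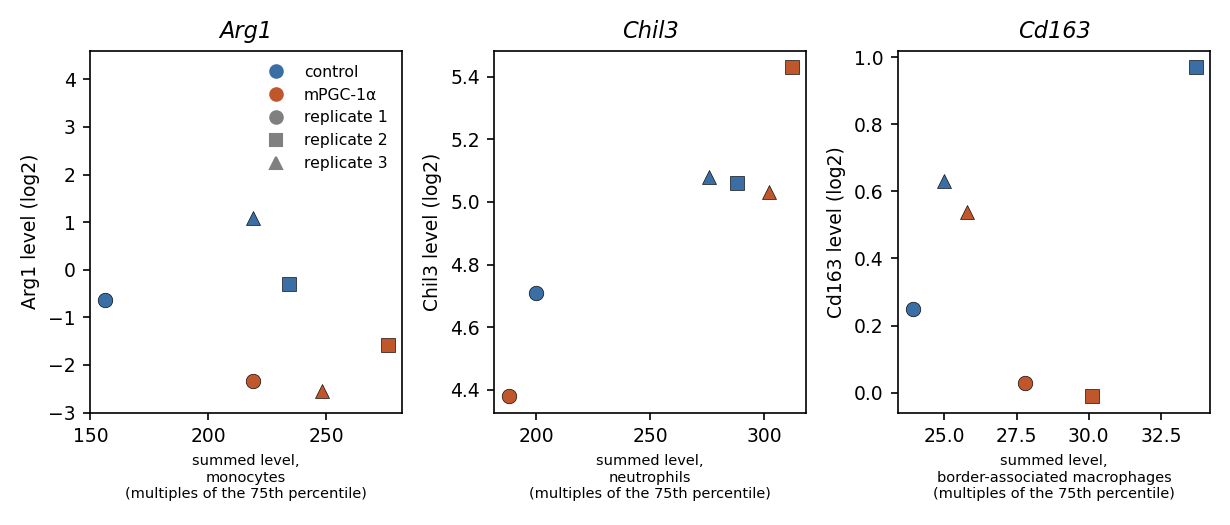
Level of Arg1, Chil3 and Cd163 on each array (log2, brightest probe) against the summed level of the markers of monocytes, neutrophils and border-associated macrophages, in multiples of the 75th percentile of the array. Each point is an array, coloured by group and shaped by replicate. Arg1 levels are lower on the mPGC-1α arrays. Monocyte sums, which rest mostly on Ms4a4c, are 156 to 234 on the control arrays and 219 to 276 on the mPGC-1α arrays. The arrays with the lowest neutrophil sums (188 and 200) have the lowest Chil3 levels. These arrays, replicate 1 of each group, also have the lowest monocyte sum of their group.

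The genes whose pattern over the 6 arrays was most like that of Arg1 were listed by Pearson r, as a description with no test, since Arg1 was chosen for its pattern and the arrays are shared. The 10 highest were Magix (r = 1.00 when rounded), Gt(ROSA)26Sor (0.989), Fzd6 (0.985), Gm11992 (0.984), Ccdc30 (0.984), Ankrd42 (0.982), Daw1 (0.981), Fam161a (0.979), Trpc1 (0.979) and Ccdc136 (0.977). Daw1, Trpc1 and Ccdc136 were well above background on all 3 control arrays but on 2 mPGC-1α arrays, so they were tested through the control group. Their levels and those of Magix were low, at -6.09 to -3.78. The lowest level well above background was -6.74 to -4.96, depending on the array. Ccdc136 was read on a probe that is not its brightest. An r of at least 0.9 was reached by 256 of 36994 probes (0.692%). Mrc1, with a marked spot, was not compared, and none of the 8 other genes was among them. The highest were the second Cd163 probe at 0.76, Arg2 at 0.67 and the second Clec10a probe at 0.58. The lowest were Stat6 at -0.91 and the Il4ra probes at -0.93 and -0.98, which were lowest on control array 3, where Arg1 was highest. The share of all probes with an r as low was not counted, so these values are a description only. Arg1 was chosen as lower on the mPGC-1α arrays, so probes that are higher there tend to a negative r.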

How the data were processed

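Microglial RNA from 3 PGC-1α f/f and 3 mPGC-1α samples, grouped by the labels, was hybridised to Agilent mouse arrays. The authors deposited 1 scanner file per array with intensity values of a green channel from Feature Extraction 11.5.1.1, background-subtracted within the array and not scaled between arrays; the labels name Cy3 in one field and Cy5 in another. A matrix of log2 values for 46731 probes, normalized by the authors with GeneSpring 13, was used as an alternative.

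The log2 processed signal was reduced by the log2 75th percentile of its array over all 56605 probes that are not controls, using R (4.3.3; data.table, 1.17.8), and spots of 1 probe were averaged. Spots marked as outliers (549 to 4931 per array) were left out of probe values but kept for the percentile, because they were mostly bright (median 9760 to 15100 units, against 115 to 221 for unmarked spots) and most numerous on the second slide. The percentile was 702 to 1180 units, and 0 spots were saturated. To be tested, a probe needed 2 values in each group and a signal well above background on every unmarked array of a group. Precision is limited by the number of arrays.

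Probes were named through their accession in a RefSeq gene list of GRCm38.p6 (33767 of 56605, 59.7%). The group difference was fitted with limma 3.58.1 (lmFit, then eBayes with trend on intensity; two-sided p-values, Benjamini-Hochberg adjusted over the tested probes, threshold 0.05) and exact permutation tests of the group means. The brightest probe stands for a gene and other probes are given beside it. No test for these arrays is given in the study's methods.

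The 10 genes and all lists were chosen with earlier results of these data known. Named pathway genes were 12 chosen for their role and the 6 with the smallest unadjusted p. Genes like Arg1 were the 10 with the highest r among probes measured on all 6 arrays. Spots marked on 1 array removed that value from the fit.

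To learn whether replicate numbers pair the samples, deviations from the group means were correlated over 36995 probes. Arrays with the same number gave 0.247, 0.224 and 0.171, and others -0.337 to 0.0346, so the numbers may pair the samples, although the labels do not explain them. Deviations within a group cancel in sum, so positive values for the same number push the others to negative values. Replicate 3 of both groups lay on the second slide, so for it pairing and slide cannot be told apart. The fit and the exact tests used for the values in the text are unpaired, and the fit with the replicate number as a block is an alternative. Alternatives were other normalizations, filters on dim probes, marked spots kept, slide or replicate number as a block, no intensity trend, averaging the probes of a gene, and leaving out each array.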

Additional observations from a re-analysis of the deposited data

How the results depend on the processing

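Across 20 alternatives, 224 of 237 values of the 9 genes other than Arg1 kept their direction and their side of the threshold, 12 changed sign and 1 newly passed. The Arg1 difference stayed between -2.54 and -1.68 when single arrays were left out and between -2.43 and -1.79 otherwise. Control array 2 decided most counts. Leaving out 1 array at a time gave 0 to 2073 of 40745 probes called. Of the 12 probes of the other 9 genes it called 0 to 1, and of the 47 pathway genes 0 to 2. The upper values, and the Cd163 probe A_55_P2289819 at -3.22 (limma adjusted p = 0.000697), came without control array 2. Without mPGC-1α array 2, 8 probes passed, all lower. With the replicate block, for the pairing by number, 1 probe passed over all, 0 of the 9 genes and 0 pathway genes, and no other call changed; the lowest adjusted p of the 9 genes was then 0.124, for the Cd163 probe A_55_P2289819 (SE 0.45, against 0.684 and SE 0.68 without the block), followed by 0.158 for the Clec10a probe A_55_P2924965. Adding quantile normalization to this block, chosen after seeing the data, called 0 probes.

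Values near 0 changed sign. Left-out arrays gave -0.24 to 0.28 for Chil3, -0.41 to 0.41 for Clec10a and -0.46 to 0.10 for Mrc1. Chil3 became 0.05 and 0.06 without control arrays 2 and 3, and 0.28 without mPGC-1α array 1. Clec10a on its brighter probe became 0.41 without control array 2, and 0.31 and 0.04 without mPGC-1α arrays 1 and 2. Mrc1 became 0.00 with marked spots kept and 0.10 without mPGC-1α array 1. Scaling alternatives added after seeing the data gave Chil3 0.07 and Clec10a 0.06 with the percentile over unmarked spots only, and 0.03 and 0.01 over probes unmarked on all arrays; these moved the median of all probes to 0.15 and 0.11.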
